A study of Mus musculus with 9 samples.

Results

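Muscle stem cells of adult mice were compared across all genes with those of neonatal mice, on 6 of the 9 bead arrays of the series. The mice were C57BL/6, aged 7 days after birth in the neonatal group (3 arrays) and 2 months in the adult group (3 arrays). The other 3 arrays hold fetal cells of embryonic day 16.5. They entered the shared estimate of spread and the choice of the brightest probe of a gene, but not the change itself. Per the series' design text, cells of all ages were sorted from muscle with antibodies to α7-integrin and CD34. The sex of the mice, the number of animals behind an array and the hour of collection are not in the labels used here. The p-values therefore measure the spread between arrays of a group, and how far that is technical is unknown.

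Muscle stem cells, or satellite cells, lie between a muscle fibre and its basement membrane and carry the transcription factor Pax7. In the weeks after birth they divide and fuse with growing fibres, and in adult muscle most of them rest outside the cell cycle until injury. In resting cells of many kinds, pocket proteins, the E2F4 and DP factors and the MuvB core form the DREAM complex, which holds genes of replication and mitosis down through E2F sites and through the cell cycle genes homology region, or CHR.

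Values are log2 probe intensities, with the brightest probe standing for a gene, and a change is the adult minus the neonatal mean with its standard error (SE) from the fit. Of 12488 genes, 37.8% differed at an adjusted p under 0.05 (limma with Benjamini-Hochberg adjustment), 19.0% being higher and 18.8% lower in adult cells. The 3 adult arrays did not overlap the 3 neonatal arrays for 47.6% of genes. These shares are the background for every count below, and a gene is said to have risen or fallen only where it passed that test. The median of all changes was 0.01. The arrays' 5th percentiles lay between 7.47 and 7.51, so a change that starts or ends near these values is compressed by background and its true size may be larger. Likewise the brightest probes read 15.86 to 16.30, and genes near that end may be understated.

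Adult replicate 3 and neonatal replicate 1 stood apart from their groups. On the first principal component of the 6 arrays, which held 80.9% of the variance, the neonatal arrays scored -27.82, -41.19 and -43.46 and the adult arrays 44.09, 46.91 and 21.46. For genes that differed at least 2-fold by the other adult arrays, adult replicate 3 showed a median of 76.8% of the rise and 66.3% of the fall. Neonatal replicate 1 showed 76.8% of the rise and 90.0% of the fall when measured the same way. Of the 545 genes that fell at least 2-fold, 105 read at least 1 log2 unit higher in adult replicate 3 than in both other adult arrays. Of the 761 that rose at least 2-fold, 88 already read at least 1 log2 unit higher in neonatal replicate 1 than in both other neonatal arrays. The number of genes called was 4718 with all arrays, 5027 without adult replicate 3 and 4601 without neonatal replicate 1.

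Markers of muscle stem cells were measured at both ages, and markers of some other cell types moved with age as well. The 11 muscle stem cell markers had a median of 10.41 to 10.62 on the neonatal and 10.69 to 11.30 on the adult arrays. Of these, 3 rose and none fell, so that 27.3% were called, below the 37.8% of all genes. Pax7 was dim in neonatal cells, at 8.45, 8.57 and 8.47, and rose to 9.99, 9.63 and 9.28 in adult cells (1.13, SE 0.16, adjusted p = 0.000196). Cdh15, the cadherin of satellite cells, read 13.82, 13.66 and 13.95 in neonatal and 13.69, 13.47 and 13.61 in adult cells, with an adjusted p of 0.166. Itga7, the α7-integrin used in the sort, read 12.89, 12.33 and 12.60 against 13.21, 12.71 and 13.12 and missed the threshold (0.40, SE 0.18, adjusted p = 0.101), but passed it without neonatal replicate 1 (adjusted p = 0.0361) and without adult replicate 2 (adjusted p = 0.0432).

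**Figure D1:**
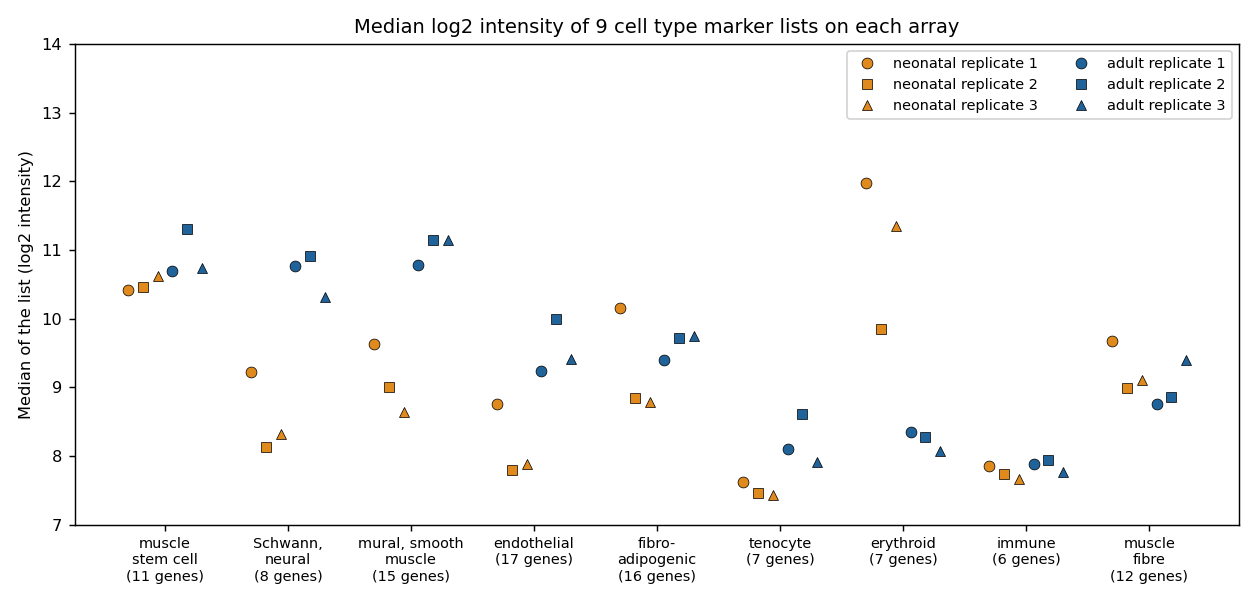
Median log2 intensity of 9 cell type marker lists (vertical axis) on the 3 neonatal arrays (orange) and the 3 adult arrays (blue), with a symbol for each replicate. The muscle stem cell markers lie between 10.41 and 11.30, the mural markers rise from 8.64 to 9.63 on neonatal arrays to 10.79 to 11.15 on adult arrays, and the erythroid markers fall from 9.85 to 11.98 to 8.08 to 8.35.

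Of 15 markers of mural and smooth muscle cells 11 rose and none fell, with a median change of 1.04. Mylk, the kinase of smooth muscle myosin, read 11.59, 9.86 and 10.29 in neonatal and 13.80, 14.15 and 14.02 in adult cells (3.41, SE 0.34, adjusted p = 2.18e-05). Rgs5, a pericyte gene, read 9.99, 9.01 and 8.64 against 10.79, 12.40 and 12.29. Acta2, smooth muscle actin, was near the top of the scale at both ages, at 15.74 to 15.86 and 15.68 to 15.90. For Mylk and Rgs5 neonatal replicate 1 was the highest neonatal array. Without it 13 mural markers rose and 1 fell, with a median change of 1.21.

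Of 17 endothelial markers 12 rose and none fell, with a median change of 0.98. Flt1, a receptor for VEGF, rose by 2.14 (SE 0.26), while the defining markers Pecam1 and Cdh5 rose but were dim at both ages. Pecam1 read 7.72 to 8.57 in neonatal and 8.54 to 9.26 in adult cells, with overlap, and Cdh5 read 7.63 to 8.76 against 8.95 to 9.26. Of 8 Schwann cell and neural markers 4 rose, among them Sox10, the factor of the glial lineage, from 7.83, 7.33 and 7.58 to 10.67, 10.71 and 10.13 (2.92, SE 0.18, adjusted p = 8.99e-07). Mag, a myelin protein, rose by 2.64 (SE 0.29), and the low-affinity neurotrophin receptor Ngfr by 0.56 (SE 0.12). No Schwann marker fell.

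Among the 16 fibroadipogenic markers 4 rose and 1 fell, a share called of 31.2%, below the 37.8% of all genes. Without neonatal replicate 1 the number that rose was 8. None fell without adult replicate 1 or adult replicate 2, and 2 fell without neonatal replicate 3. Pdgfra, which defines these cells, read 9.78, 8.72 and 8.31 in neonatal and 7.95, 8.44 and 8.24 in adult cells and was not called (adjusted p = 0.0783), except without neonatal replicate 3, where it was lower in adult cells (-1.04, adjusted p = 0.0184). Of 7 tenocyte markers 4 rose, or 2 without neonatal replicate 2, neonatal replicate 3 or adult replicate 2, and none fell, or 1 without neonatal replicate 1. Of 6 immune markers 2 rose and none fell, a share called of 33.3%, also below that of all genes. The immune list stayed near background, with medians of 7.67 to 7.85 in neonatal and 7.76 to 7.94 in adult cells.

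Red cell transcripts went the other way. Of 7 erythroid markers 5 fell and none rose, or 1 without adult replicate 3, with a median change of -1.93. Slc4a1, the anion exchanger of red cells, fell from 11.98, 9.85 and 11.35 to 7.91, 7.85 and 7.63 (-3.26, SE 0.39, adjusted p = 6.73e-05), and Alas2, the first enzyme of erythroid haem synthesis, fell by 2.02 (SE 0.30). Fewer cells of a type and less RNA per cell cannot be told apart in such samples, and the part of other cells in the results below was not tested.

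Transcripts of the sex chromosomes differed between the groups too. Xist, the RNA that silences an X chromosome in female cells, showed the largest fall of all, from 10.90, 12.87 and 11.38 to 7.50, 7.27 and 7.14 (-4.41, SE 0.37, adjusted p = 8.89e-06). The Y-linked Eif2s3y, chosen after its values were seen, read 10.28, 10.26 and 9.99 in neonatal and 11.46, 11.73 and 11.22 in adult cells (1.29, SE 0.15, adjusted p = 4.66e-05). Signal from both genes was thus present in the neonatal samples, and Xist was at background in the adult ones. The part of sex in the results was not tested.

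Genes of DNA replication and mitosis fell nearly as whole lists. Of 39 genes of replication origins and forks 38 fell and none rose, against the 18.8% of all genes that fell, with a median change of -1.67. Of 50 mitotic genes 48 fell and 1 rose, with a median of -2.26, or -2.65 without adult replicate 3. Of the 147 genes that fell at least 4-fold, 48 belonged to the cell cycle lists, and none of the 135 genes that rose at least 4-fold did.

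**Figure D2:**
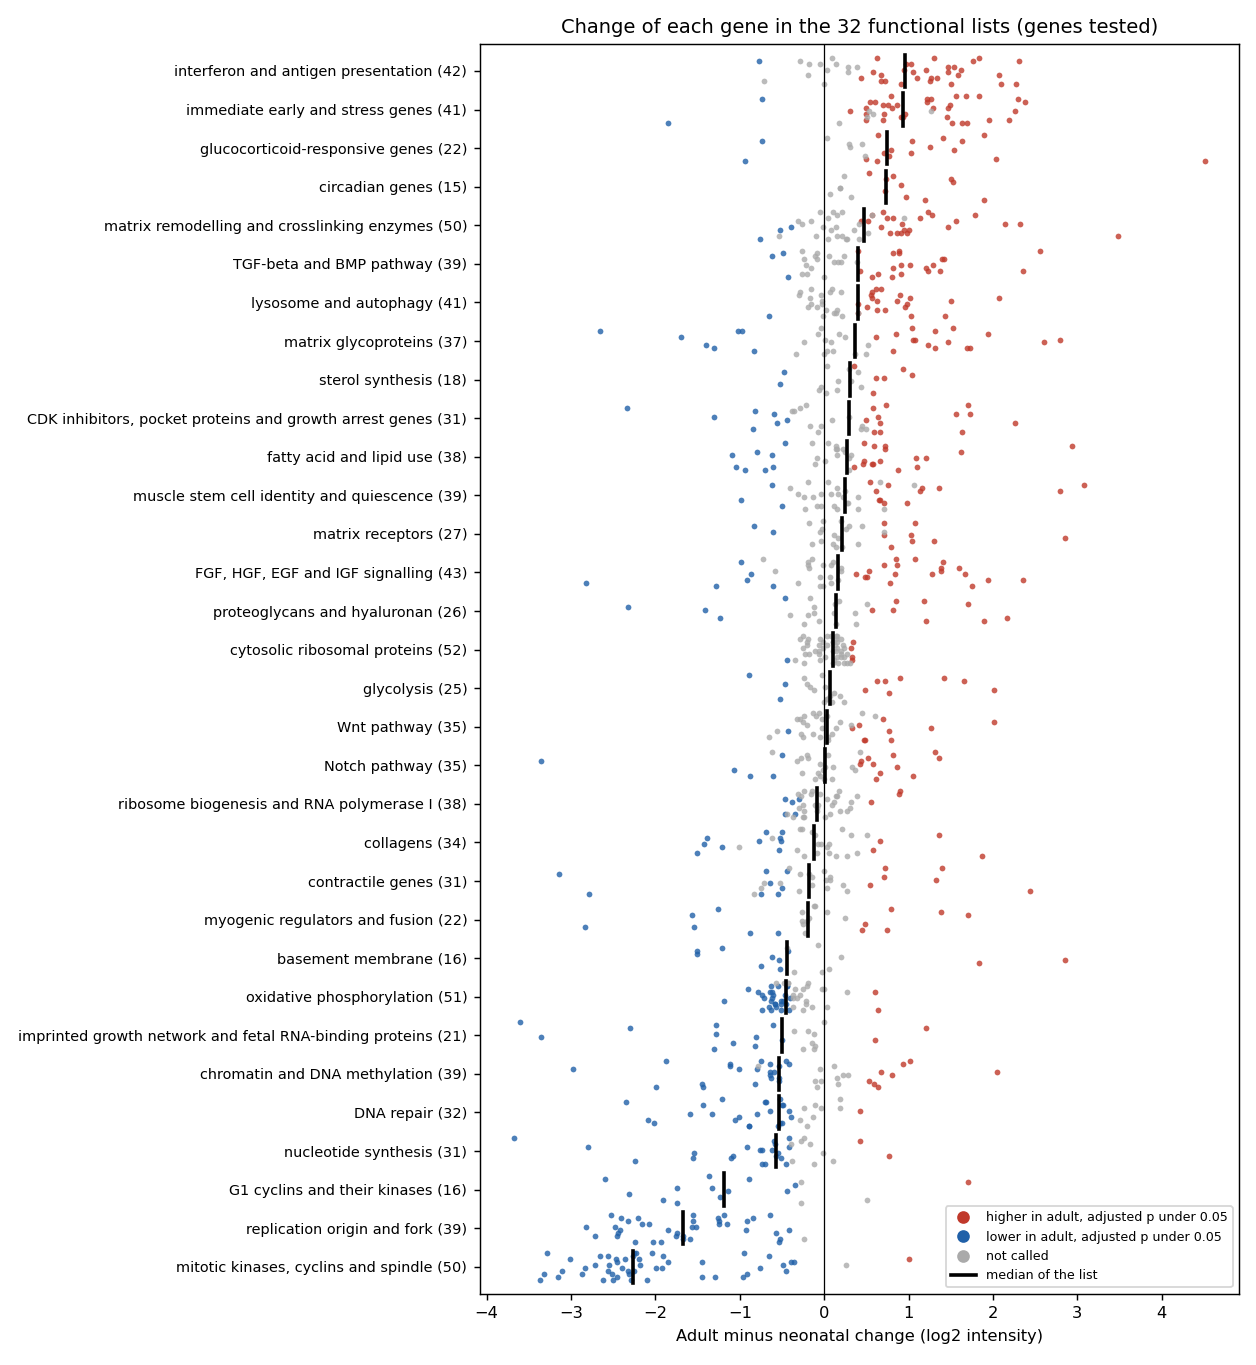
Adult minus neonatal change in log2 intensity (horizontal axis) of every gene tested in 32 functional lists (rows, with the number tested), ordered by the list median (black bar), with genes called higher in red, called lower in blue and not called in grey. The mitotic (median -2.26) and replication (median -1.67) lists lie to the left, and the interferon (median 0.96) and immediate early (median 0.93) lists to the right.

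Cdc7, the kinase that fires replication origins, read 11.75, 11.88 and 11.95 in neonatal and 9.37, 9.20 and 9.76 in adult cells (-2.42, SE 0.16, adjusted p = 1.56e-06). Pole, the catalytic subunit of the leading strand polymerase, fell by 2.16 (SE 0.15), and Chaf1a, which loads histones behind the fork, fell from 10.94, 11.01 and 11.05 to 8.65, 8.47 and 9.25 (-2.21, SE 0.18). The adult arrays lay below all neonatal arrays for 39 of the 39 replication genes, against 47.6% of all genes without overlap in either direction.

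Among the mitotic genes, Mybl2, the B-Myb factor that joins MuvB when mitotic genes are switched on, fell from 11.47, 11.47 and 11.27 to 8.15, 7.84 and 9.19 (-3.01, SE 0.26, adjusted p = 1.06e-05). Melk, a mitotic kinase, fell by 2.10 (SE 0.16), and Plk4, which starts centriole duplication, by 2.26 (SE 0.21). The adult values of Melk, 7.60, 7.52 and 8.13, were close to background in replicates 1 and 2. Pttg1, securin, was the exception and rose from 7.59, 7.81 and 7.92 to 8.90, 9.04 and 8.40 (1.01, SE 0.16, adjusted p = 0.00054), though it too was dim.

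The fall was shallower in adult replicate 3 in each of these genes that fell. The median of the mitotic list was 10.69, 10.78 and 10.77 on the neonatal arrays and 8.27, 8.13 and 9.20 on the adult arrays. The median of the replication list was 10.74, 10.94 and 10.97 against 8.79, 8.87 and 9.56. On both lists adult replicate 3 was nearest to the neonatal arrays without overlapping them.

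**Figure D3:**
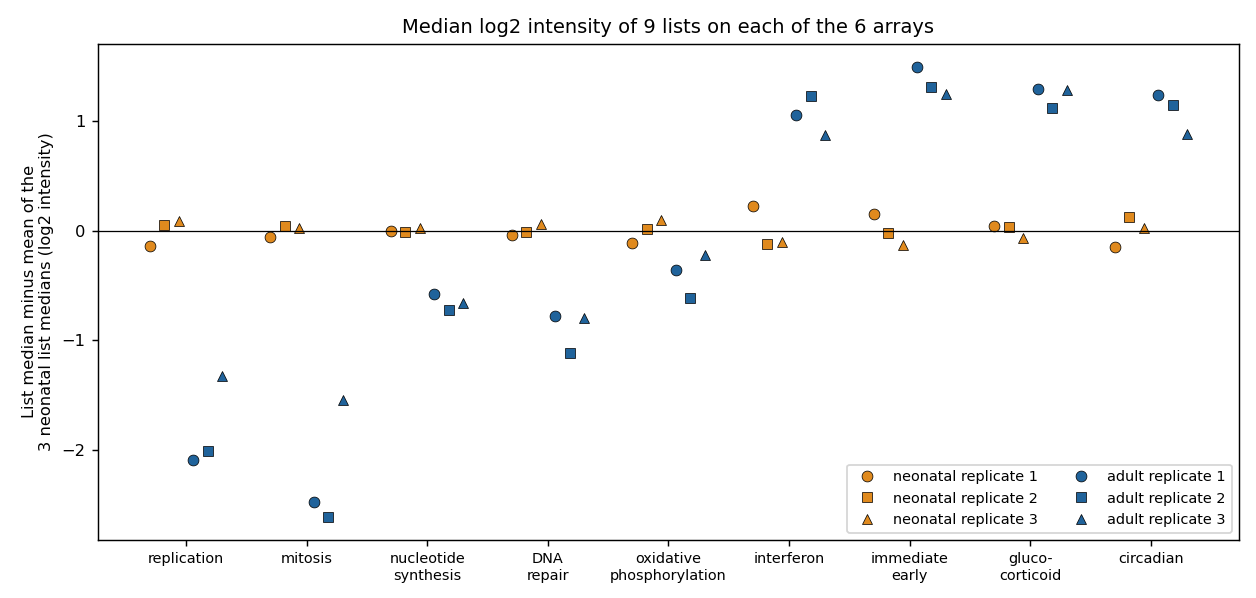
Median log2 intensity of 9 lists on each array, less the mean of the 3 neonatal list medians (vertical axis), with neonatal arrays in orange, adult arrays in blue and a symbol for each replicate. Adult replicate 3 (blue triangles) is the adult array nearest the neonatal arrays for replication, mitosis, oxidative phosphorylation, interferon, immediate early and circadian genes. For nucleotide synthesis, DNA repair and glucocorticoid genes it lies between the other adult arrays.

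The G1 machinery fell less evenly. Of 16 G1 cyclins, their kinases and E2F factors, 12 fell and 1 rose. Ccne1, a cyclin of the G1 to S transition, fell from 9.42, 9.63 and 9.69 to 7.51, 7.55 and 7.95 (-1.91, SE 0.17), and E2f1, an activator of S phase genes, by 2.31 (SE 0.30). Cdk4, the partner of D cyclins, fell from 13.08, 13.21 and 13.30 to 11.58, 11.70 and 12.21 (-1.37, SE 0.19, adjusted p = 0.000183). The neonatal and adult arrays were separate for these 3 genes. A second gene of the list rose without neonatal replicate 1, giving 2.

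The 3 D-type cyclins, which couple growth signals to Cdk4, went different ways. Ccnd3 fell from 14.41, 14.25 and 14.45 to 13.47, 13.02 and 13.20 (-1.14, SE 0.13, adjusted p = 5.07e-05). Ccnd2 rose from 10.76, 8.75 and 8.49 to 10.96, 11.21 and 10.96 (1.71, SE 0.44, adjusted p = 0.00944), with neonatal replicate 1 close to the adult level. Ccnd1 read 13.35, 13.46 and 13.79 against 13.01, 13.11 and 13.67 and was not called (adjusted p = 0.266), though without adult replicate 3 it was lower (-0.48, adjusted p = 0.0285).

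Promoters were searched for letters tied to cell cycle control. RefSeq promoter windows of the GRCm38.p6 build, from 250 bases before to 50 after a start, were found for 10039 of the 12488 genes (12783 windows). A CHR (TTTGAA or TTCGAA, either strand) was in 79.5% of the 44 windows of mitotic genes and in 14.3% of all windows. A CCAAT box (CCAAT, either strand), the site of NF-Y, was in 63.6% against 37.6%, and both motifs were in 61.4% against 5.7%. The CCAAT box was not particular to lists that fell. It was in 83.3% of the sterol synthesis windows and 72.2% of the circadian windows, where more genes rose than fell. Over all genes that fell the shares were 17.4% for the CHR, 40.7% for the CCAAT box and 9.2% for both. Over the genes that fell at least 4-fold they were 33.8%, 57.4% and 27.0%. These differences were not tested. Parts of 4 such promoters are shown, chosen after values and motifs were seen, because these genes fell by 2.32 to 3.36 and pair both motifs close to the start. Capitals mark CCAAT boxes (CCAAT or ATTGG) and CHRs, and each stretch is written 5′ to 3′ on the gene's strand and ends at the base before the start.
Cdk1: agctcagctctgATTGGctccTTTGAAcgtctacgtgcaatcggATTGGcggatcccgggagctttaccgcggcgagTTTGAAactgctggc
Top2a: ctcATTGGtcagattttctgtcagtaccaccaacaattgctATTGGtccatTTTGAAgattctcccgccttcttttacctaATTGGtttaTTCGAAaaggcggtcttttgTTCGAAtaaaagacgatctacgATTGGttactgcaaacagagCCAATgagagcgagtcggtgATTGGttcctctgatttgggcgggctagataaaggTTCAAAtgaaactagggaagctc
Cdc20: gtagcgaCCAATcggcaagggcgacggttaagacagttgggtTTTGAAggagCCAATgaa
Kif22: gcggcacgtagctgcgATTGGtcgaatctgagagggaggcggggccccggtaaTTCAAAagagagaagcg
The stretches lie at chr10:69352913-69353004, chr11:99024190-99024419, chr4:118437344-118437403 and chr7:127042421-127042490, all on the minus strand. Cdk1, the mitotic cyclin-dependent kinase, has 2 CHRs and 2 CCAAT boxes in its stretch, and Top2a, the topoisomerase that untangles sister chromatids, has 4 and 6. Cdc20, the activator of the anaphase-promoting complex, fell from 12.30, 12.34 and 12.50 to 9.65, 9.24 and 11.31 (-2.32, SE 0.39), and Kif22, a chromosome-arm kinesin, from 11.63, 11.92 and 11.96 to 8.87, 8.79 and 10.47 (-2.46, SE 0.35).

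Within the mitotic list the size of the fall did not follow the motif. The 32 genes with a CHR in a window had a median change of -2.28, and the 9 genes without one had a median of -2.56, among them Mybl2, Melk and Plk4 and also Pttg1, which rose. A match describes letters in the window and is not a measured binding site.

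For replication genes the E2F core (TTGGCGC or TTCCCGC, either strand) was in 51.4% of 37 windows, against 11.0% of all windows. Its reverse form GCGCCAA can share letters with a CCAAT box, so the shares of both motifs are not independent. Parts of 3 promoters are shown because these genes fell and hold an E2F core before the start, chosen after values and motifs were seen. The E2F core is in capitals (on the opposite strand as GCGCCAA).
Mcm6: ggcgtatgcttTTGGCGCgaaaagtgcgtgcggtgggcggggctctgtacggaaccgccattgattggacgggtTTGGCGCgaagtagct
Mcm5: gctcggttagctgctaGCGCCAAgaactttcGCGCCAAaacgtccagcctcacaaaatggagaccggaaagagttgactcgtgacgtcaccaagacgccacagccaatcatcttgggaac
Chaf1a: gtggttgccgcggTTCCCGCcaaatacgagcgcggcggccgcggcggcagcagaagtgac
They lie at chr1:128359736-128359825 on the minus strand, and at chr8:75109329-75109448 and chr17:56040356-56040415 on the plus strand. Mcm5 and Mcm6 are subunits of the replicative helicase. Mcm5 fell from 13.22, 13.37 and 13.16 to 10.35, 10.36 and 11.73 (-2.44, SE 0.30, adjusted p = 7.89e-05), and Mcm6 from 12.12, 12.23 and 12.18 to 9.95, 9.96 and 10.83 (-1.93, SE 0.20). The 17 replication genes with an E2F core had a median change of -1.85 and the 14 without one -1.54.

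**Figure D4:**
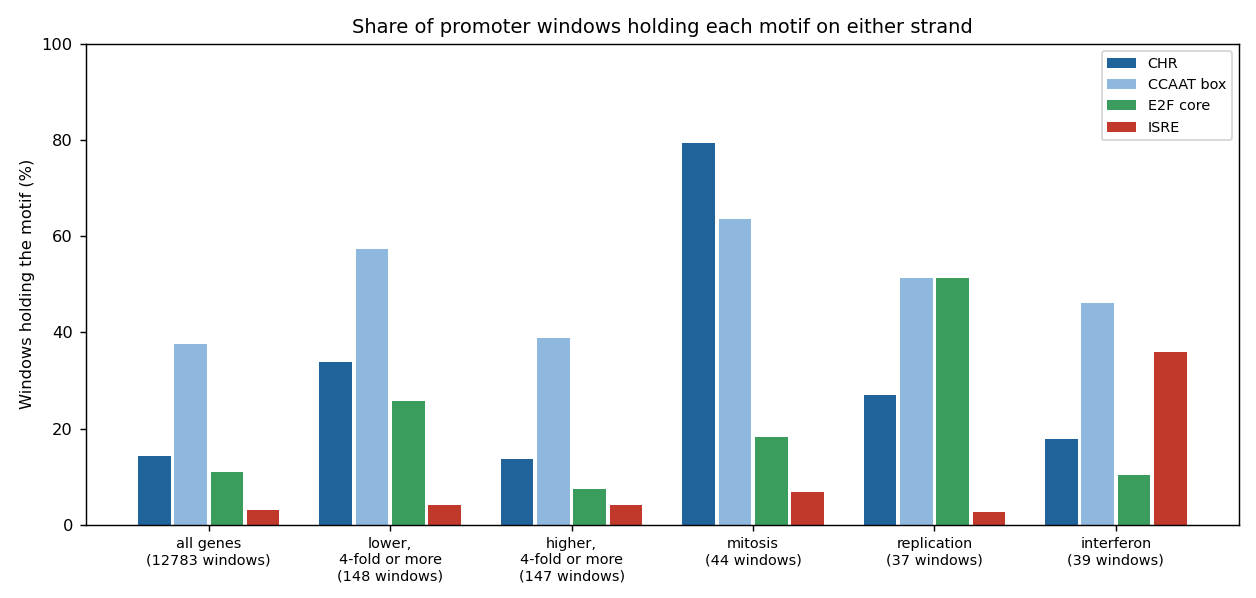
Share of promoter windows in percent (vertical axis) that hold a CHR, a CCAAT box, an E2F core or an interferon-stimulated response element (ISRE) on either strand, for all genes, for genes changed at least 4-fold and for 3 lists. The CHR share is 79.5% for mitotic genes and 14.3% for all genes, and the ISRE share is 35.9% for interferon genes and 3.0% for all genes.

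Genes that halt the cell cycle moved in both directions. Of 31 CDK inhibitors, pocket proteins and growth arrest genes, 12 rose and 7 fell, with a median change of 0.30, or 0.18 without neonatal replicate 1. Cdkn2b, the p15 inhibitor of Cdk4, rose from 8.07, 7.73 and 8.02 to 9.84, 9.35 and 9.74 (1.70, SE 0.18, adjusted p = 2.8e-05). Cdkn1c, the imprinted p57 inhibitor, fell from 15.91, 15.81 and 15.80 to 14.49, 13.50 and 15.61 (-1.31, SE 0.37, adjusted p = 0.0164). The Cdkn1c change was -0.79 without adult replicate 2, and its call was lost with a trended and robust prior variance (adjusted p = 0.0705). Its neonatal values were near the top of the scale.

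Of the other inhibitors of Cdk4, Cdkn2c (p18) fell by 0.60 (SE 0.14) and Cdkn2d (p19) fell by 0.56 (SE 0.13), while Cdkn2a (p16), near background at both ages, was not called (-0.16, SE 0.12, adjusted p = 0.336). Cdkn1b, the p27 inhibitor, read 8.62, 8.86 and 8.51 in neonatal and 9.38, 8.95 and 9.40 in adult cells (0.58, SE 0.15, adjusted p = 0.0112) and missed the threshold when neonatal replicate 3 was left out (adjusted p = 0.0532). Cdkn1a, the p21 inhibitor, read 13.58, 13.33 and 13.36 against 13.91, 13.96 and 13.91. The groups did not overlap for Cdkn1a, but the change was not called (0.50, SE 0.28, adjusted p = 0.182). It was called when the fetal arrays were left out of the fit (adjusted p = 0.0114) and with the mean of its probes (0.0434).

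Of the pocket proteins, Rbl1 (p107) fell from 10.33, 10.44 and 10.33 to 7.88, 7.61 and 8.60 (-2.34, SE 0.21, adjusted p = 1.21e-05), and Rb1 from 11.45, 11.95 and 11.73 to 10.62, 10.75 and 11.23 (-0.85, SE 0.17). The adult arrays lay below the neonatal arrays for both. Rbl2 (p130) is not among the genes tested in this list. Some transcripts for other parts of the DREAM complex were lower too, as seen after their values were known. They were Lin54 of the MuvB core (-0.83, SE 0.12), E2f4 (-0.44, SE 0.16, adjusted p = 0.0428) and the DP factor Tfdp1 (-1.74, SE 0.25). E2f5 (0.44, SE 0.16, adjusted p = 0.0504) and Dyrk1a (-0.078, SE 0.16, adjusted p = 0.739), of the same list as E2f4, were not called. Both were also named after their values were seen. Among growth arrest genes, Klf4, a zinc finger factor, rose from 11.66, 10.37 and 10.55 to 13.19, 13.32 and 12.85 (2.26, SE 0.28). Klf4 is also counted among the immediate early and stress genes below. Gas6, a ligand of the TAM receptors first found in arrested fibroblasts, rose by 1.72 (SE 0.24), and the antiproliferative factor Tob2 by 1.57 (SE 0.23). Foxo1, a forkhead factor held in check by insulin signalling, rose by 0.64 (SE 0.14), and Foxo3 was just short of the threshold (0.44, SE 0.17, adjusted p = 0.0528), and passed it without neonatal replicate 3 (0.0396) or adult replicate 3 (0.0412).

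Genes known for the identity and quiescence of muscle stem cells were called about as often as all genes, at 38.5% against 37.8%. The groups did not overlap for 19 of them, against 47.6% of all genes. Of 39 such genes 12 rose and 3 fell, with a median change of 0.25, and 1 fell without neonatal replicate 3 or adult replicate 2. Gpx3, a secreted glutathione peroxidase, read 12.97, 12.79 and 12.93 in neonatal and 15.80, 15.70 and 15.59 in adult cells (2.80, SE 0.13, adjusted p = 3.6e-07). Chodl, a lectin-like membrane protein, rose from 13.24, 13.46 and 13.37 to 14.79, 14.98 and 14.38 (1.36, SE 0.16). Replicates lay close together for Gpx3, whereas adult replicate 3 was the lowest adult array for Chodl.

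Esam, a junctional adhesion molecule that endothelial cells carry too, rose from 10.13, 8.44 and 8.63 to 12.03, 12.29 and 12.12 (3.08, SE 0.34). Tek, the angiopoietin receptor, which also belongs to the endothelial list, rose by 0.98 (SE 0.18). Calcr, the calcitonin receptor that marks resting satellite cells, rose by 0.75 (SE 0.22, adjusted p = 0.0192). Calcr missed the threshold when neonatal replicate 1, neonatal replicate 3 or adult replicate 2 was left out (adjusted p = 0.0559, 0.0645 and 0.0847). Pdgfa, a growth factor ligand, was among the 3 that fell, by 0.99 (SE 0.18).

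**Figure D5:**
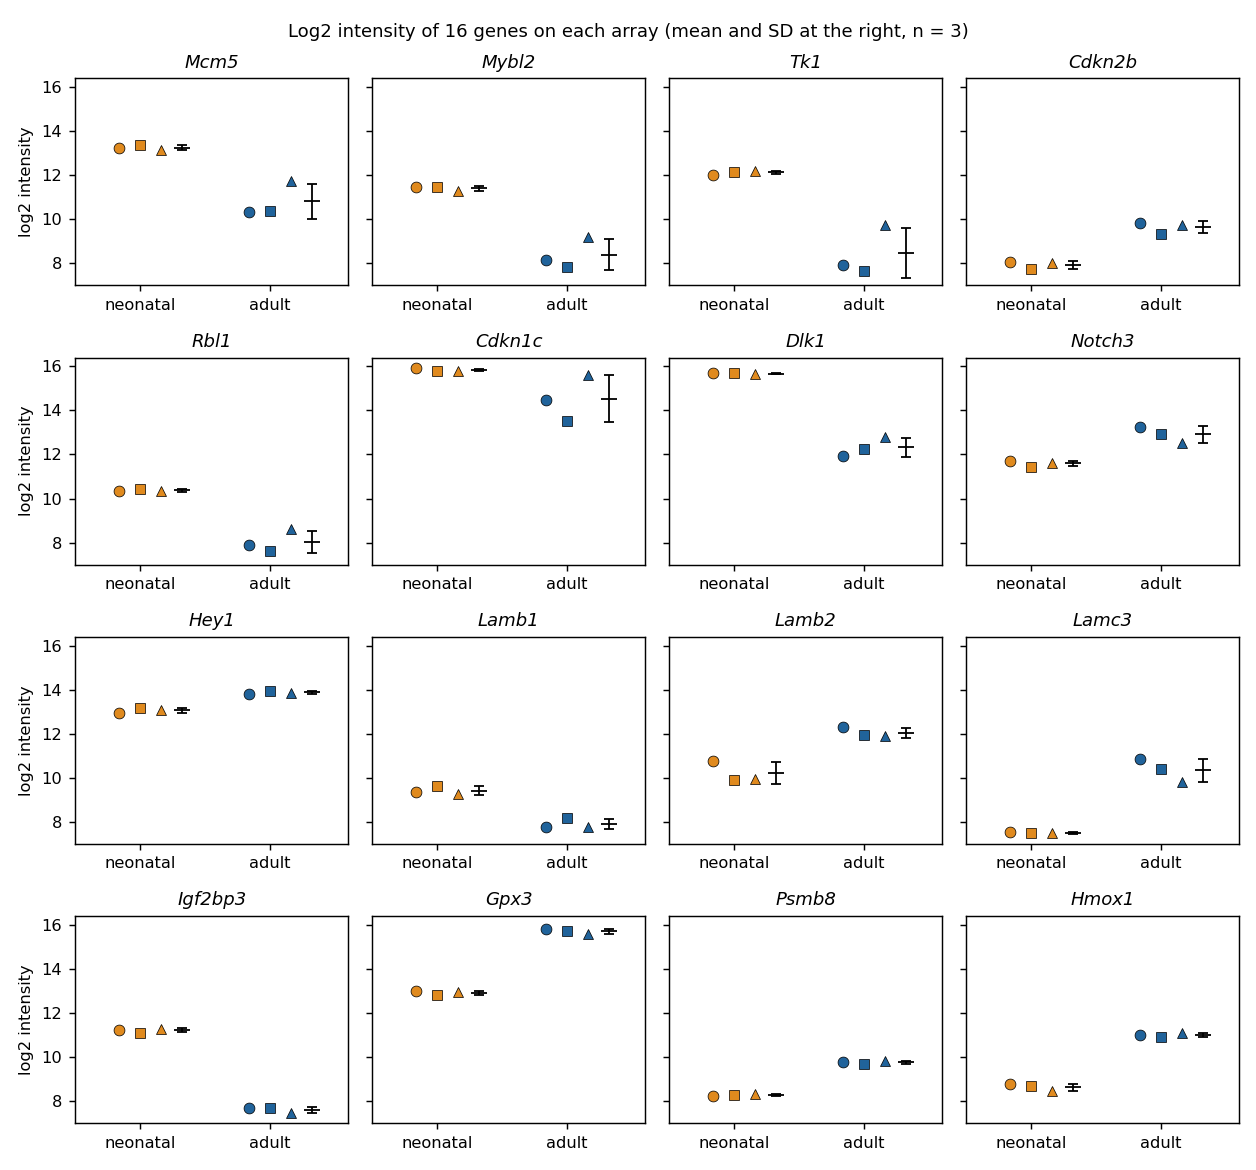
Log2 intensity (vertical axis) of 16 genes on the 3 neonatal (orange) and 3 adult (blue) arrays, with a symbol for each replicate and the mean with its SD (n = 3) at the right of each group. The groups do not overlap for any of these genes. Gpx3 and Hmox1 replicates differ little, whereas Mcm5, Mybl2 and Tk1 spread on the adult side, where replicate 3 is highest.

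The Notch pathway restrains the differentiation of satellite cells. The list used here also holds collagen genes that the collagen list counts too. Among them Col5a3 rose (0.58, SE 0.20) and Col5a1 fell (-0.50, SE 0.155), and the others were not called. Of the 35 genes in the list 11 rose and 5 fell, a share called of 45.7% against 37.8% of all genes. The median change was 0.01, and its sign turned without adult replicate 1 (-0.020), while it reached 0.087 without neonatal replicate 3 and 0.030 to 0.040 without any other array. The counts ranged from 7 to 12 and from 3 to 6 when single arrays were left out, with 7 higher without adult replicate 1 and 3 lower without neonatal replicate 3, adult replicate 1 or adult replicate 2. Among the receptors Notch3 rose from 11.70, 11.44 and 11.63 to 13.26, 12.95 and 12.52 (1.32, SE 0.18, adjusted p = 0.000155). Notch1 read 11.54, 11.97 and 12.06 against 11.83, 11.78 and 11.82 and was not called (adjusted p = 0.848). Notch2 was close to background and was not called (adjusted p = 0.637).

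The target genes Hey1, Heyl and Hes1, which encode basic helix-loop-helix repressors, all rose. Hey1 went from 12.94, 13.18 and 13.05 to 13.82, 13.94 and 13.85 (0.81, SE 0.11, adjusted p = 0.000166). Heyl rose by 0.66 (SE 0.16) and Hes1 by 0.86 (SE 0.21). The groups were separate for the 3 repressors. Hes6, a relative that counteracts Hes1, fell by 0.88 (SE 0.24), with a change of -0.57 without adult replicate 2, and missed the threshold without neonatal replicate 3 (adjusted p = 0.0676). The target Nrarp was not called (0.37, SE 0.18, adjusted p = 0.139), except without adult replicate 2 (adjusted p = 0.0441). Nrarp, like Cdkn2a above, was named after its values were seen. Notch3 and Heyl are also known from mural cells, and Notch3 stands in that marker list.

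Dlk1, an imprinted Notch-like membrane protein of immature cells, had one of the largest falls. It read 15.72, 15.68 and 15.64 in neonatal cells, near the top of the scale, and 11.94, 12.25 and 12.80 in adult cells (-3.35, SE 0.18, adjusted p = 6.07e-07). Mfng, a glycosyltransferase that modifies Notch receptors, fell by 0.61 (SE 0.15). The canonical ligand Dll1 read 10.33, 10.96 and 11.25 against 9.60, 9.15 and 10.56, so the groups overlapped (-1.07, SE 0.31, adjusted p = 0.0174), and Dll1 missed the threshold when neonatal replicate 2, neonatal replicate 3, adult replicate 1 or adult replicate 2 was left out (adjusted p = 0.0566, 0.0791, 0.0619 and 0.0759).

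Ligands, receptors and binding proteins of growth factor signalling shifted in composition. Of 43 genes of FGF, HGF, EGF and IGF signalling 19 rose and 6 fell. Hbegf, a ligand of the EGF receptor, rose from 10.18, 9.87 and 9.50 to 11.55, 11.96 and 11.86 (1.93, SE 0.17, adjusted p = 1.21e-05). Its receptor Egfr rose from 11.97, 11.43 and 11.14 to 13.28, 13.53 and 12.75 (1.67, SE 0.22). Irs2, an adaptor of the insulin and IGF receptors, rose by 1.75 (SE 0.19).

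Within the IGF system the ligand Igf2 fell from 15.79, 15.69 and 15.65 to 14.36, 14.28 and 14.63 (-1.28, SE 0.13, adjusted p = 2.07e-05). Of the binding proteins, which tune access of IGFs to their receptor, Igfbp3 fell from 12.05, 12.17 and 12.33 to 8.56, 9.11 and 10.41 (-2.82, SE 0.34), and Igfbp5 rose from 14.37, 14.03 and 13.93 to 15.46, 15.55 and 15.49 (1.39, SE 0.14). Neonatal and adult arrays did not overlap for any of these 3 genes. Igf2 and Igfbp5 both had values near the top of the scale.

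In the TGF-beta and BMP pathway 20 of 39 genes rose and 3 fell, with a median change of 0.40, and only 1 fell when any of neonatal replicates 2 and 3 or adult replicates 1 and 2 was left out. Bmp6, a BMP ligand, rose from 7.94, 7.39 and 7.62, close to background, to 10.15, 9.97 and 9.88 (2.35, SE 0.17, adjusted p = 3.1e-06). Tgfbr3, the betaglycan co-receptor, rose from 9.34, 8.67 and 9.37 to 11.70, 12.10 and 11.24 (2.56, SE 0.22). Fst, the activin antagonist follistatin, rose by 1.29 (SE 0.16), and Skil, a repressor of SMAD targets, by 1.23 (SE 0.14).

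Of 35 Wnt pathway genes 9 rose and 1 fell, with 5 rising without neonatal replicate 3 or adult replicate 2 and 2 falling without adult replicate 3. The share called, 28.6%, was below the 37.8% of all genes. Wnt4, a ligand, rose from 8.03, 7.73 and 7.69 to 9.40, 9.05 and 8.81 (1.27, SE 0.16). Sfrp5, a secreted Wnt antagonist, rose from 9.60, 7.93 and 8.19 to 10.79, 10.73 and 10.24 (2.01, SE 0.34), with neonatal replicate 1 the nearest to the adult values. The median over the Wnt list was 0.038, and it was 0.014 without neonatal replicate 3, 0.017 without adult replicate 3 and -0.038 without adult replicate 2.

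The surrounding matrix changed member by member. Of 16 basement membrane genes 8 fell and 2 rose, with a median change of -0.44. The 2 that rose were laminin chains, the cross-shaped proteins that anchor the cell. Lamb2 went from 10.77, 9.90 and 9.93 to 12.29, 11.93 and 11.88 (1.83, SE 0.22, adjusted p = 6.52e-05). Lamc3 went from background, 7.52, 7.47 and 7.48, to 10.84, 10.40 and 9.79 (2.85, SE 0.22). The alternative β chain Lamb1 fell from 9.35, 9.63 and 9.25 to 7.75, 8.18 and 7.78 (-1.51, SE 0.16, adjusted p = 2.87e-05). Neonatal and adult arrays were separate for each of these chains, in opposite directions for Lamb1 and Lamb2.

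Collagens went both ways. Col15a1, a basement membrane collagen of muscle, fell from 13.87, 13.91 and 14.13 to 12.35, 12.17 and 12.85 (-1.51, SE 0.18), and Col4a2, a chain of type IV collagen, fell by 1.22 (SE 0.19), whereas Col8a1, a short-chain collagen, rose by 1.36 (SE 0.27). Of 34 collagen genes 10 fell and 4 rose, a share called of 41.2% against 37.8% of all genes. Only 5 fell without adult replicate 1 or adult replicate 2. Hspg2, the proteoglycan perlecan, fell by 0.62 (SE 0.14).

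Among 37 matrix glycoproteins 16 rose and 7 fell. The median change was 0.37, but 0.83 without neonatal replicate 1, 0.16 without neonatal replicate 2, 0.069 without neonatal replicate 3 and 0.56 without adult replicate 1. Tnc, tenascin C of growing and injured tissue, fell from 12.06, 12.61 and 12.32 to 9.33, 9.59 and 10.08 (-2.66, SE 0.19, adjusted p = 2.89e-06). Tnxb, tenascin X of mature connective tissue, rose from 11.30, 9.73 and 9.67 to 13.71, 13.16 and 12.21 (2.80, SE 0.46). Ccn2, or CTGF, rose from 11.68, 11.86 and 11.57 to 14.40, 14.44 and 14.08 (2.60, SE 0.18), and Ccn4, of the same family, fell by 0.98 (SE 0.15).

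Fn1, fibronectin, read 12.88, 11.54 and 11.63 in neonatal and 10.76, 11.31 and 10.93 in adult cells (-1.02, SE 0.29, adjusted p = 0.0164). The Fn1 change was -0.59 without neonatal replicate 1, and the call was lost without adult replicate 1 (adjusted p = 0.0643). Of 26 proteoglycan and hyaluronan genes 8 rose and 4 fell (46.2% called, against 37.8% of all genes), with 5 rising without neonatal replicate 3. Gpc3, a glypican that restrains growth in development, fell from 13.81, 13.58 and 13.58 to 11.17, 11.59 and 11.23 (-2.33, SE 0.15, adjusted p = 1.24e-06). Vcan, the large proteoglycan versican, fell from 9.20, 9.03 and 8.79 to values near background, 7.56, 7.74 and 7.49 (-1.41, SE 0.13), whereas Prelp, a leucine-rich repeat proteoglycan, rose by 2.16 (SE 0.28).

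Enzymes that remodel the matrix rose more often than they fell, in 23 of 50 cases against 3, with a median change of 0.48. Sulf1, which trims sulphates from heparan sulphate, rose from 9.47, 8.80 and 8.65 to 12.58, 12.73 and 12.05 (3.48, SE 0.22, adjusted p = 1.48e-06). Timp3, a matrix-bound inhibitor of metalloproteinases, rose by 1.56 (SE 0.19), and Plat, tissue plasminogen activator, by 2.32 (SE 0.31). The number that fell was 1 without adult replicate 2. Of 27 matrix receptors 8 rose and 2 fell, a share called of 37.0% against 37.8% of all genes. Itgb4, the laminin-binding β4-integrin, rose from 11.84, 9.04 and 9.18 to 13.23, 13.08 and 12.30 (2.85, SE 0.58, adjusted p = 0.00239), with neonatal replicate 1 far above the other neonatal arrays.

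Of 21 imprinted growth genes and RNA-binding proteins of fetal tissue, 11 fell and 2 rose, with a median change of -0.51, and the number that rose was 0 to 2 when single arrays were left out, being 0 without adult replicate 1 and 1 without neonatal replicate 2, neonatal replicate 3 or adult replicate 2. Igf2bp3, which stabilises growth transcripts in embryos, fell from 11.24, 11.10 and 11.27 to background, 7.68, 7.67 and 7.44 (-3.60, SE 0.12, adjusted p = 3.87e-08). That was the smallest adjusted p in the list, and the adult arrays, replicate 3 included, were at the same low level. Igf2bp1 fell by 1.08 (SE 0.13) to values at background. Mest, an imprinted hydrolase of growing mesoderm, fell from 13.65, 13.93 and 13.67 to 10.90, 11.23 and 12.22 (-2.30, SE 0.26), and Ndn, necdin, by 0.80 (SE 0.11).

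Among the genes of the myogenic and contractile lists that fell were 3 known as developmental forms of muscle proteins. Chrng, the fetal γ subunit of the acetylcholine receptor, read 11.99, 11.92 and 12.15 in neonatal and 8.97, 7.90 and 10.68 in adult cells (-2.84, SE 0.49, adjusted p = 0.00084). Myh8, neonatal myosin heavy chain, read 11.30, 11.27 and 11.48 against 8.28, 7.89 and 9.51 (-2.79, SE 0.37), and Actc1, the cardiac actin of embryonic muscle, fell by 3.15 (SE 0.64). In all 3, adult replicate 3 was the highest adult array.

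Of 22 myogenic regulators and fusion genes 6 rose and 6 fell, though 2 fell without neonatal replicate 3 and 3 without neonatal replicate 2, adult replicate 1 or adult replicate 2. Musk, the receptor kinase of the neuromuscular junction, rose by 0.79 (SE 0.14). Des, the intermediate filament desmin that satellite cells, fibres and mural cells share, rose from 12.52, 12.14 and 12.26 to 13.97, 14.24 and 13.82 (1.71, SE 0.14, adjusted p = 8.72e-06). Of 31 contractile genes 6 rose and 8 fell, a share called of 45.2% against 37.8% of all genes. Actn3, α-actinin of fast fibres, rose from 9.65, 9.79 and 10.07 to 12.27, 12.17 and 12.40 (2.44, SE 0.14, adjusted p = 8.99e-07), with the groups wide apart. Of 12 muscle fibre markers 2 rose and 3 fell, with 41.7% called. None of them rose without neonatal replicate 3, 1 rose without neonatal replicate 2 or adult replicate 1, and 5 fell without adult replicate 3. The fibre creatine kinase Ckm was near background on most arrays, at 7.82 to 8.73 and 7.82 to 8.25.

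Metabolic genes moved in both directions. Of 31 nucleotide synthesis genes 21 fell and 2 rose, with a median change of -0.57. Tk1, thymidine kinase of S phase, fell from 12.04, 12.16 and 12.20 to 7.95, 7.67 and 9.75 (-3.67, SE 0.41, adjusted p = 4.41e-05). Rrm2, the regulated subunit of ribonucleotide reductase, fell by 2.25 (SE 0.20), and Tyms, thymidylate synthase, by 2.80 (SE 0.28). Uck2, a uridine-cytidine kinase of the salvage route, rose by 0.76 (SE 0.12), and it was 1 of the 2 that rose, or the only one without neonatal replicates 2 or 3 or adult replicates 1 or 2.

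Of 51 genes of oxidative phosphorylation 28 fell and 2 rose, with a median change of -0.45, and the number that fell was 19 to 37 when single arrays were left out, the lowest without neonatal replicate 3 and the highest without adult replicate 3. The number that rose was 1 without neonatal replicate 2. Atp5o, a stalk subunit of ATP synthase, fell from 14.78, 15.24 and 14.95 to 14.10, 13.84 and 14.33 (-0.90, SE 0.16), and Cox5b, of cytochrome oxidase, by 0.63 (SE 0.13). Of 52 cytosolic ribosomal proteins 4 rose and 1 fell, below the 37.8% of all genes called, with a median change of 0.11, or 0.061 without neonatal replicate 3, and levels near the top of the scale. The number that rose was 5 without adult replicate 3, 2 without neonatal replicate 1, 0 without neonatal replicate 3 and 1 without each of the rest, and none fell without neonatal replicate 2, neonatal replicate 3 or adult replicate 2. Of 38 ribosome biogenesis genes 3 rose, or 5 without adult replicate 3, and 5 fell. Without neonatal replicate 3 none of these fell, and 1 to 3 fell without neonatal replicate 2 or any adult array.

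Glucose entry and lipid genes moved in both directions. Of 25 glycolysis genes 8 rose and 3 fell, a share called of 44.0% against 37.8% of all genes. Slc2a3, the high-affinity glucose carrier, rose from 9.61, 9.07 and 9.15 to 11.47, 11.41 and 10.99 (2.01, SE 0.17, adjusted p = 7.44e-06), while Pgk1, phosphoglycerate kinase, fell by 0.90 (SE 0.17). Of 38 genes of fatty acid and lipid use 16 rose and 8 fell. Scd1, stearoyl-CoA desaturase, rose from 10.29, 8.91 and 8.98 to 12.29, 12.64 and 12.06 (2.94, SE 0.36), and Elovl6, which elongates fatty acids, fell by 1.09 (SE 0.16). Ppargc1a, a coactivator of mitochondrial genes, rose from 8.10, 8.53 and 8.16 to 9.56, 9.21 and 9.33 (1.10, SE 0.15), while most of the oxidative genes called were lower. Of 18 sterol synthesis genes 6 rose and 2 fell, with 44.4% called. None fell without neonatal replicate 3, and 1 fell without any other array.

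Lysosome and autophagy genes rose in 20 of 41 cases and fell in 1, with a median change of 0.40. Gabarapl1, an ATG8 protein of autophagosomes, rose from 11.06, 10.72 and 10.81 to 12.91, 12.92 and 12.97 (2.07, SE 0.15, adjusted p = 2.95e-06). Sqstm1, the p62 cargo receptor, rose from 13.85, 13.46 and 13.50 to 15.00, 15.28 and 15.03 (1.50, SE 0.18), and Neu1, a lysosomal sialidase, by 1.43 (SE 0.14). The adult arrays stood together and above all neonatal arrays for these genes. Wipi1, a phosphoinositide-binding autophagy protein, was the one that fell (-0.66, SE 0.16).

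Chromatin and DNA repair genes fell more often than they rose. Of 39 genes for chromatin or DNA methylation, 8 rose and 21 fell, with a median change of -0.53. Asf1b, a histone chaperone of dividing cells, fell from 9.41, 9.96 and 10.19 to 7.77, 7.68 and 8.13 (-1.99, SE 0.21), and the de novo methyltransferase Dnmt3b by 0.79 (SE 0.13). Cbx7, a subunit of Polycomb repressive complex, rose from 8.02, 8.33 and 8.20 to 10.64, 10.36 and 9.72 (2.05, SE 0.20, adjusted p = 1.68e-05), and Hdac5, a class IIa deacetylase, rose by 1.02 (SE 0.15). Of 32 DNA repair genes 23 fell and 1 rose, with a median of -0.54. Rad54l, a motor of homologous recombination, fell from 10.31, 10.47 and 10.47 to 7.84, 7.90 and 8.45 (-2.35, SE 0.17), and Blm, the Bloom helicase, by 1.59 (SE 0.14). The 1 that rose was Trp53bp1, a reader of DNA breaks (0.42, SE 0.12, adjusted p = 0.0135), which missed the threshold when neonatal replicate 3 was left out (adjusted p = 0.0609) and with the mean of its probes (0.0835).

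Interferon-induced and antigen presentation genes rose in 29 of 42 cases, against 19.0% of all genes, with a median change of 0.96. Psmb8, an immunoproteasome subunit, rose from 8.24, 8.28 and 8.31 to 9.78, 9.66 and 9.81 (1.47, SE 0.11, adjusted p = 3.52e-06). Irf9, the DNA-binding part of the ISGF3 complex, rose from 10.29, 9.88 and 9.84 to 11.86, 11.96 and 11.48 (1.76, SE 0.16). The class I molecules H2-K1 and H2-T23 rose by 2.07 (SE 0.22) and 2.27 (SE 0.23), though a probe of a class I gene can also pick up close relatives.

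The element bound by ISGF3, the ISRE (GAAANNGAAA, either strand), was searched for after these values were seen. It was in 35.9% of 39 windows of this list and in 3.0% of all windows. Stretches of 4 promoters are shown because they hold the element upstream of genes that rose, chosen after values and motifs were seen, with the ISRE, read on either strand, in capitals.
Gbp2: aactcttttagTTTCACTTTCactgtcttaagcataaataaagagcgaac
H2-T23: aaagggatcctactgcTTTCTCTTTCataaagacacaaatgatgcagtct
B2m: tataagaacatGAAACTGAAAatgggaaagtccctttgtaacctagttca
Isg15: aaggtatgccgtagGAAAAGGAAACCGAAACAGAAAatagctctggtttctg
They lie at chr3:142620593-142620642 (plus strand), chr17:36032792-36032841 (minus), chr2:122147537-122147586 (plus) and chr4:156200859-156200910 (minus). Isg15, a ubiquitin-like protein, has 3 overlapping matches and rose from background, 7.47, 7.41 and 7.42, to 8.98, 8.46 and 8.14 (1.09, SE 0.18). B2m, the light chain of class I molecules, rose from 12.98, 12.64 and 12.55 to 14.14, 14.34 and 14.19 (1.50, SE 0.18, adjusted p = 7.27e-05), and Gbp2, a guanylate-binding protein, from 10.83, 9.65 and 9.15 to 12.32, 12.76 and 11.49 (2.31, SE 0.43).

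The ISRE did not mark out the genes that rose within the list. The 14 genes with a match had a median change of 1.15 and the 19 without one 1.03. Rsad2, the antiviral protein viperin, has a match and was the 1 gene of the list that fell (2 without neonatal replicate 1), from 9.60, 9.77 and 10.01 to 9.01, 8.81 and 9.25 (-0.77, SE 0.16, adjusted p = 0.00263).

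Immediate early and stress genes rose in 34 of 41 cases and fell in 2, with a median change of 0.93. Hmox1, haem oxygenase, rose from 8.77, 8.65 and 8.43 to 11.00, 10.92 and 11.06 (2.38, SE 0.12, adjusted p = 5.86e-07). Atf3, a stress-induced bZIP factor, rose from 12.14, 12.19 and 11.96 to 13.70, 13.51 and 13.63 (1.52, SE 0.14), and Zfp36, which destabilises cytokine transcripts, by 1.69 (SE 0.18). Dusp2, a phosphatase of MAP kinases, fell by 1.85 (SE 0.22). Such genes are known to respond to tissue dissociation and sorting, and the time to sorting is not in the labels used here, so its part was not tested. Adult replicates lay close together for Hmox1 and Atf3, adult replicate 3 included.

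Glucocorticoid-responsive genes rose in 15 of 22 cases and fell in 2, with a median change of 0.74. Some of those that rose, such as Foxo1 and Per1, are counted in other lists too. Mt1 and Mt2, metallothioneins that bind zinc, rose by 1.54 (SE 0.23) and 2.03 (SE 0.21). Of the 2 that fell, Cebpd, a C/EBP factor that is also one of the 2 lower immediate early genes, read 10.34, 10.48 and 10.31 against 9.67, 9.53 and 9.71, but its other probe went the opposite way (0.78) and the mean of its probes was not called (adjusted p = 0.913). Without any 1 of the 3 neonatal arrays or of adult replicates 1 and 2, only 1 gene of this list fell.

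Of 15 circadian genes 10 rose and none fell, with a median of 0.73. Per1, a repressor of the clock that glucocorticoids also induce, rose from 10.57, 10.38 and 10.37 to 12.84, 12.35 and 11.81 (1.89, SE 0.24). Nr1d1, the REV-ERBα receptor, rose from 9.53, 9.47 and 9.32 to 11.10, 10.92 and 10.90 (1.53, SE 0.12, adjusted p = 6.32e-06). Arntl, the activator BMAL1 that Nr1d1 represses, rose by 1.19 (SE 0.23). The hour of collection was not tested as a cause.

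Outside the lists the largest rises included genes of several cell types and of redox defence. Neu2, a cytosolic sialidase, rose from 9.04, 8.38 and 8.50 to 12.81, 13.51 and 11.86 (4.09, SE 0.33, adjusted p = 6e-06). Srxn1, sulphiredoxin, which repairs peroxiredoxins, rose from 10.42, 9.92 and 9.46 to 13.48, 13.95 and 13.23 (3.62, SE 0.26). Ryr3, a calcium release channel, rose from background, 7.49, 7.72 and 7.49, to 11.27, 11.34 and 10.52 (3.48, SE 0.19, adjusted p = 6.07e-07). Apoe, a lipid carrier, rose by 3.46 (SE 0.25), and Aldh1a1, which makes retinoic acid, by 2.89 (SE 0.21).

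Others among the largest rises are known from the cells whose markers rose. Myl9, the regulatory light chain of smooth muscle myosin, rose from 11.27, 9.54 and 9.48 to 13.26, 13.48 and 13.41 (3.28, SE 0.37). Ncmap, a protein of peripheral myelin, rose from 8.69, 7.63 and 7.57 to 11.63, 11.73 and 11.40 (3.63, SE 0.24). In both genes neonatal replicate 1 was the highest of the neonatal arrays. The part of mural and Schwann cells in these rises was not tested.

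The largest falls outside the lists included further genes known from dividing cells. Pclaf, a clamp-associated protein of the replication fork, fell from 11.47, 11.79 and 11.93 to 7.51, 7.55 and 9.03 (-3.70, SE 0.35, adjusted p = 1.65e-05). H2ac11, a replication-dependent histone H2A gene, fell by 3.59 (SE 0.47) and H2ac15, another, fell by 3.25 (SE 0.50), although probes of these near-identical genes may not tell the copies apart. Lmnb1, lamin B1 of the nuclear envelope, fell from 13.87, 13.72 and 13.92 to 11.10, 10.73 and 12.22 (-2.49, SE 0.28). Mycl, a MYC family factor, fell from 11.46, 12.36 and 12.31 to 8.99, 8.50 and 10.23 (-2.80, SE 0.37). In each of the genes given by array here, adult replicate 3 was the highest adult array and still lay below the neonatal ones.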

How the data were processed

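RNA of sorted muscle stem cells was hybridised to Illumina bead arrays, with biotin-labelled copies made by the TotalPrep kit, per the labels' protocols. The deposited values are intensities on a linear scale per probe. How the authors normalized them is not stated in the labels used here. Since the arrays had nearly equal quantiles, the intensities were taken as normalized and only log2 transformed. They carry no detection p, and the number of arrays limits the precision.

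Of 24538 probes 20211 had 1 gene symbol, 12 had several and 4315 had none in the annotation used; the latter were not named. The probe with the highest mean stood for each of 12488 genes. In R 4.3.3, limma 3.58.1 (lmFit, eBayes) was fitted to all 9 arrays, with no block (6 residual degrees of freedom), two-sided, with Benjamini-Hochberg adjustment over all genes and calls at an adjusted p under 0.05. The fit was also run on simulated data in which each gene varied independently. Whole-array shifts such as those of adult replicate 3 and neonatal replicate 1 were not simulated. Among other probes of called genes, 2962 of 3411 had the same sign.

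The comparison and the 41 gene lists (32 functional, 9 of markers) were chosen with earlier results of these data known, so list counts are descriptions without a test of the list. A gene could stand in several lists, so their counts are not separate results. Genes were named from up to 6 members per list and direction with the smallest adjusted p, the 30 largest changes each way outside the lists, and a short fixed set; printed promoters and genes said to be chosen later are exceptions, as are defining cell type markers. Motifs were searched in RefSeq windows with Python 3.11.15. The RBPJ site (TGGGAA), the E-box (CANNTG) and the CRE (TGACGTCA) were searched as well. They were in 23.1%, 65.3% and 2.8% of all windows. Over genes that fell the shares were 23.1%, 62.6% and 2.7%, and over genes that rose 22.4%, 68.2% and 3.1%. The RBPJ site was in 17.9% of the 39 windows of the Notch list. Replicate numbers occur in every group, but deviations of the 9 same-numbered pairs correlated between -0.059 and 0.294, with 6 above 0.1, so they were not used to pair samples. Alternatives covered the arrays in the fit, the block, normalization, centring, background, dim genes, probe choice, prior variance, array weights and each array left out. Scan dates and slides were not used here.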

Additional observations from a re-analysis of the deposited data

How the results depend on the processing

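Of 161 genes named, 144 kept their direction and their side of the threshold under every one of the 16 alternatives in which they were tested. Lin54, E2f4, E2f5, Dyrk1a, Tfdp1 and the collagens of the Notch list are not among the 161, here or below. With single arrays left out, the genes called numbered 3556 to 5027, with 1817 to 2585 higher and 1739 to 2442 lower, and the calls among list members 516 to 648. Restricting the test to genes at or above the median intensity gave 3070 calls, 1394 of them higher and 1676 lower, because fewer genes were tested. With the replicate block 4930 genes were called (2464 higher, 2466 lower), and with the block on the 6 neonatal and adult arrays alone, an alternative chosen after seeing the data, 4337 (2186 higher, 2151 lower). Among the genes named, the replicate block changed the calls of Itga7 (0.40, adjusted p = 0.0133) and Foxo3 (0.44, adjusted p = 0.041). Array centring moved the calls to 2414 higher and 2301 lower. The sign turned for Cebpd with the mean of its probes (0.019), and for 3 genes that were not called, namely Ckm with array weights (0.027) and, with single arrays left out, Acta2 (-0.11 to 0.0039), Ckm (-0.27 to 0.19) and Notch1 (-0.20 to 0.056). The cause was not tested. Of 1312 list counts under alternatives, 147 moved by over 1.5 times, mostly counts of few genes. Foxo3 was also called with array centring (adjusted p = 0.049). It has only 1 probe, so its own values did not change in the fit on probe means. Its adjusted p there was 0.0485 because the other genes of that fit changed.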

Other observations

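Among the 4315 probes without a gene symbol in the annotation used, 543 were higher and 492 lower in adult cells at an adjusted p under 0.05 (limma), in a fit that named no gene for them.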
